A study of Mus musculus with 13 samples.

Results

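Genes of homologous recombination and Fanconi anaemia repair were followed in 3 mouse models of neuroblastoma, a childhood tumour of the sympathetic nervous system, and in normal adrenal gland. The set names 35 genes of these pathways. Each was read by its brightest probe set, and 34 were measured among 18194 genes in all. Xrcc2 was not matched to a probe set, and the member listed as Claspn was read as Clspn, the mouse symbol of claspin. The tumours came from mice with neural crest specific expression of mutated ALK, a receptor tyrosine kinase (mutALK, n = 3 arrays), of MYCN, a transcription factor (MYCN, n = 4), or of both (double transgenic, n = 3). The controls were adrenal glands of normal mice (n = 3), and all mice had a C57BL/6 background. Tumours were taken once palpable, and ages are not given in the labels. Total RNA was hybridised to Affymetrix arrays and the values are log2 expression. They are listed in replicate order, differences are first group minus second ± SE from 1 limma fit over all genes, and a gene was called at an adjusted p under 0.05.

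Homologous recombination repairs a broken chromosome by copying the intact sister chromatid, and it therefore works mainly in cells that are replicating their DNA. Broken ends are cut back to single strands, coated by replication protein A and, with the help of BRCA2, made ready to invade the sister strand. The Fanconi pathway opens crosslinked DNA at stalled forks, where a core complex marks the FANCD2-FANCI pair with ubiquitin. The ATR kinase and its partners hold the cell cycle while the fork is mended. Fast-dividing tumours such as neuroblastoma are known to meet replication stress.

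The adrenal cortex markers, 10 genes of steroid-making cells, averaged 11.53 to 12.92 in the adrenal arrays and 5.41 to 7.11 in the tumours. The 13 sympathoadrenal markers averaged 8.62 to 10.09 in the gland, 10.35 to 10.62 in MYCN, 10.85 to 11.29 in double transgenic and 11.63 to 11.83 in mutALK arrays. Transcripts of 10 liver genes averaged above 8 in 5 arrays spread over all groups, namely double transgenic 1 (12.34), adrenal 2 (11.44), mutALK 1 and 3 (11.23 and 9.92) and MYCN 2 (9.08), and ranged from 5.05 to 6.33 in the other arrays. In these whole-tissue samples fewer cells of a type and less RNA per cell cannot be told apart. Nothing in the labels ties each array to an animal of its own, and mutALK 2 and 3 share a title number, as do MYCN 2 and 3. The p-values therefore reflect only the spread among these arrays, which may be technical. The double transgenic samples are numbered apart from all other samples, and the labels name no batch. In comparisons with that group a difference of batch cannot be told apart from genotype.

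Most repair genes were higher in every tumour model than in the adrenal gland. In 28 of the 34 members the group mean was highest in MYCN tumours, which was not counted over all genes. In MYCN minus adrenal 30 of the 34 members rose and 1 fell, with a median difference of 2.04. Of all 18194 genes 25.3% were called higher and 24.8% lower (50.2% in either direction), with a median of -0.02. In double transgenic minus adrenal 28 members rose and 1 fell, at a median of 1.56, where 24.3% of all genes were called higher and 24.2% lower (48.6% in either direction) and the median was -0.03. In mutALK minus adrenal 21 rose and 1 fell, at a median of 0.91, where 21.3% of all genes were called higher and 21% lower (42.2% in either direction) and the median was 0. These comparisons share the 3 adrenal arrays. The same 21 members that rose in mutALK tumours rose in all 3 models. Another 6, Atm, Atr, Bard1, Brip1, Fanca and Rad51b, were called in MYCN and double transgenic tumours and not in mutALK tumours. Without the 5 arrays with liver transcripts, which leaves 1 mutALK array, the median difference of the members was 1.91 in MYCN minus adrenal. It was 1.46 in double transgenic minus adrenal and 0.67 in mutALK minus adrenal. The medians of all genes were then 0.01, -0.01 and 0.04. The remaining array is mutALK 2, whose spread is assumed to be that of the other groups, and the setting also drops mutALK 3, the highest mutALK array for 28 of the 34 members. Calls lost under it in mutALK minus adrenal therefore go with that array as well as with the liver transcripts.

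**Figure D1:**
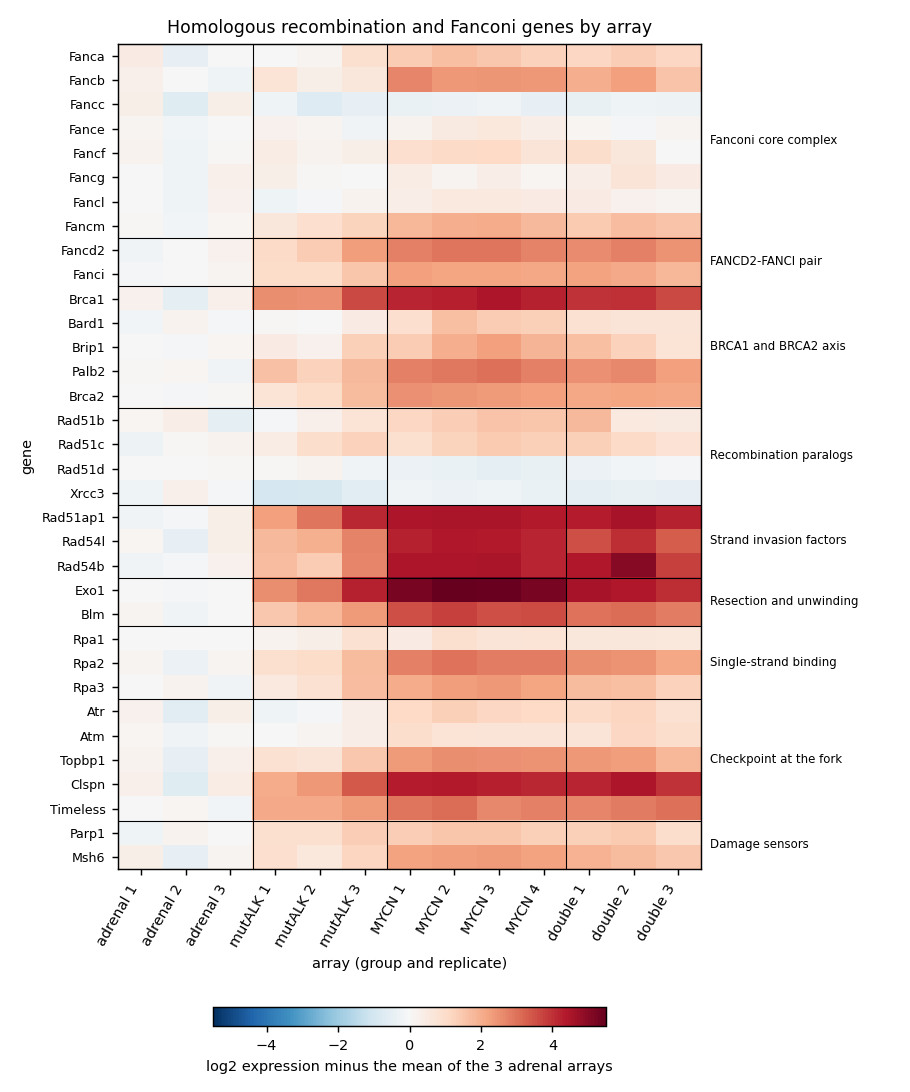
Heat map of log2 expression minus the mean of the 3 adrenal arrays for the 34 measured members (rows, ordered by role) in the 13 arrays (columns). The MYCN and double transgenic arrays are the darkest for most members, with Exo1 at 9.61 to 9.87 in MYCN arrays against 4.32 to 4.42 in adrenal, while Fancc, Rad51d and Xrcc3 stay pale.

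Most members shared 1 order of the group means, with few calls between double transgenic and MYCN tumours. The group means rose from adrenal through mutALK and double transgenic to MYCN in 26 of the 34 members, an order not counted over all genes. In 8 of them, Blm, Brca2, Fancb, Fancm, Msh6, Palb2, Rad54l and Rpa2, every array of a group lay above every array of the group before it, which held for 1.45% of all genes. In mutALK minus MYCN 27 members were lower and 1 was higher, at a median of -1.15, against 17.2% of all genes called lower and 13.6% higher (30.8% in either direction). In double transgenic minus mutALK 20 members were higher and 0 lower, at a median of 0.79, against 8.39% and 6.03% of all genes (14.4% in either direction), and all 20 were among the 27. At an unadjusted p under 0.05 limma gave 23 higher and 0 lower there, and the share of all genes at that threshold was not counted. The count of 20 at an adjusted p under 0.05 was 12 without mutALK 1, 11 without mutALK 2 and 11 without double transgenic 2, and 20 without the arrays with liver transcripts. In double transgenic minus MYCN 2 members, Blm and Bard1, were lower and 0 higher, at a median of -0.24, against 6.66% and 6.16% of all genes (12.8% in either direction). The 2 called lower are a share (5.88%) near that over all genes. At an unadjusted p under 0.05 limma gave 12 lower and 0 higher in this comparison, again without a count over all genes to set beside it. In 14 members every double transgenic array lay below every MYCN array, against 16.2% of all genes. The count of 2 was 0 without MYCN 2, 3 or 4 or double transgenic 1, 2 or 3, 1 without mutALK 2 or adrenal 1 or 3, 4 without mutALK 3 or adrenal 2, and 5 without the arrays with liver transcripts.

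**Figure D2:**
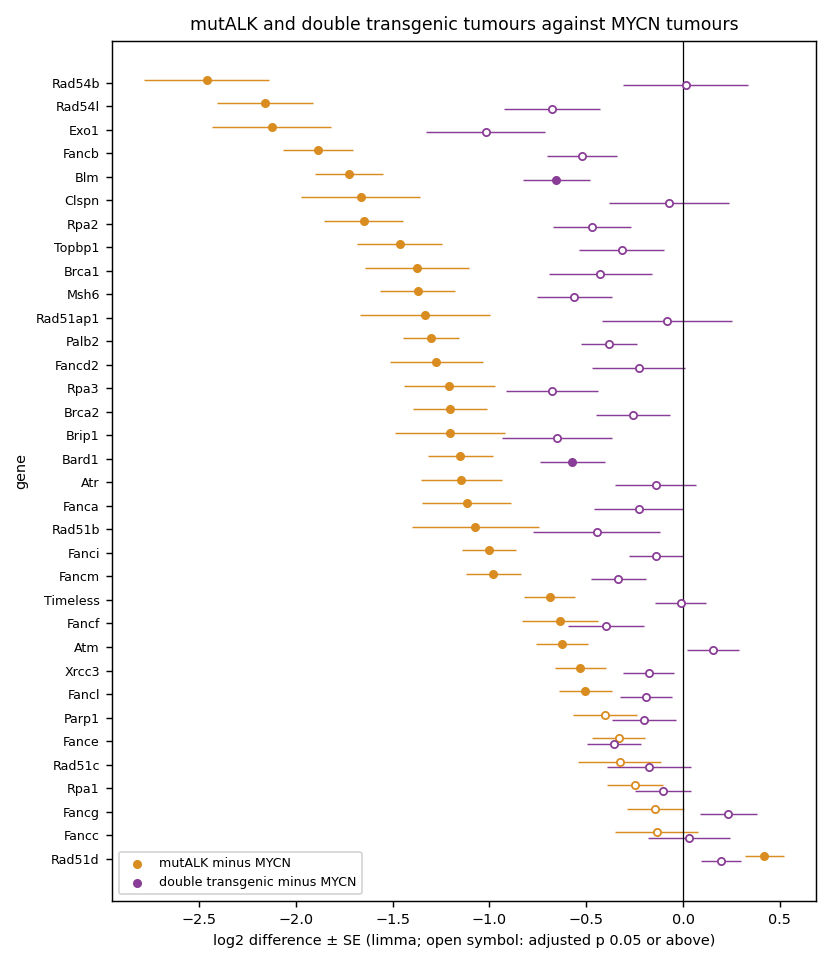
Log2 difference ± SE of mutALK (orange) and double transgenic tumours (purple) from MYCN tumours for each member, with filled symbols for adjusted p under 0.05 in limma. Of the mutALK values 27 are called lower and Rad51d is called higher, and of the double transgenic values only Blm and Bard1 are called.

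Since these genes moved together, their promoter windows from RefSeq (GRCm38.p6, 250 bases before to 50 after the start) were searched on both strands for letters bound by cell cycle factors. A window was held for 30 of the 34 members, and only the first listed window of a gene was searched. Rad51b, Rad51c and Rad54l each have 2 windows, so 1 of each was not searched. The E2F letters were TTCCCGC, with TTCGCGC as its first variant, TTGCCGC as a further variant and TTGGCGC as the last, and these can overlap one another. Any of them was in 18 of 30 member windows (60%) and in 14.2% of 14453 gene windows. CCAAT, bound by NF-Y, was in 20 (66.7%) against 38.2%. TTTGAA, the cell cycle homology region, was in 1 (3.3%) against 13.4%, and the E-box CACGTG, which MYC proteins bind, in 2 (6.7%) against 9%. Among windows of genes called lower in mutALK than in MYCN tumours, the E2F letters were in 16 of 24 members and in 22.7% of 2592 genes overall. Among those not called lower they were in 2 of 6 members and in 12.3% of 11861 genes. CCAAT was in 17 of 24 members and 39.2% of genes called lower, and in 3 of 6 members and 38% of the others. A match is a description of letters and not a measured binding site. The windows below run from 150 bases before to 30 after the start, 5′ to 3′ along the gene, with E2F letters or their reverse complement in capitals. The first 5 belong to members that rose in all models and were picked because they hold the letters, and the last 2 to members that did not rise and do not hold them. They are Rad51ap1 at chr6:126939558-126939737 on the minus strand, Clspn at chr4:126556830-126557009 on the plus strand, Brca1 at chr11:101551926-101552105 on the minus strand, Blm at chr7:80534969-80535148 on the minus strand, Rpa2 at chr4:132768210-132768389 on the plus strand, Fancc at chr13:63431716-63431895 on the minus strand and Xrcc3 at chr12:111813850-111814029 on the minus strand.
Rad51ap1: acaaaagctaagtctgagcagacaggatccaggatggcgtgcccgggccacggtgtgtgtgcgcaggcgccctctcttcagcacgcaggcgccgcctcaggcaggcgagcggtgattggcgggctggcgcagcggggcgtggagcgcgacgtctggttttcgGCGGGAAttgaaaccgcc
Clspn: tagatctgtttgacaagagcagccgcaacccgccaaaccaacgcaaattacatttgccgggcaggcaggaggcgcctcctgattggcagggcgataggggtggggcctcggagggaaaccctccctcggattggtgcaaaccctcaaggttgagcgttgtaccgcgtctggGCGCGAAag
Brca1: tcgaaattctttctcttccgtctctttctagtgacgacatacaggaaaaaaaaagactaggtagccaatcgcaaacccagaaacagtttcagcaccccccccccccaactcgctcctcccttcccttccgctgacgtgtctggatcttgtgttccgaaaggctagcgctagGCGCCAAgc
Blm: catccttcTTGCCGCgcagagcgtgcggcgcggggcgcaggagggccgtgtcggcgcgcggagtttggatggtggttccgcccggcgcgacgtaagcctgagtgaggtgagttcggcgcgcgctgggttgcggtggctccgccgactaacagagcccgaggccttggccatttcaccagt
Rpa2: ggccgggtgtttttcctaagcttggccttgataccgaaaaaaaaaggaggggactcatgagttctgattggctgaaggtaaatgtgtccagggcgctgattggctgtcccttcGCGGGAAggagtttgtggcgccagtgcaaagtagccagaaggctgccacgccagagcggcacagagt
Fancc: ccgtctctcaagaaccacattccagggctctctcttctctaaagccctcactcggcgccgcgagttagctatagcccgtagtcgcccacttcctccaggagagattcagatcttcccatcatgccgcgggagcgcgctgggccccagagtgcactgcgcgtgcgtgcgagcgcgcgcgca
Xrcc3: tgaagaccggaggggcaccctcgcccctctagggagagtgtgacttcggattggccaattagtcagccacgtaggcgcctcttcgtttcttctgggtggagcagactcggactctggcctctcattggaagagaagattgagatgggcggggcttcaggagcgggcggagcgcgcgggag

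Counted from the start, with negative values before it, the match begins at 13 in Rad51ap1, at 22 in Clspn and Brca1, at -37 in Rpa2 and at -142 in Blm. Neither Fancc nor Xrcc3 holds these letters in the 300 bases searched, and both hold CCAAT there. The letters and the calls did not always go together. Palb2, Parp1, Rad54l, Rpa1 and Timeless rose in all models without them in the window searched, and Fancg, called in double transgenic minus adrenal alone, holds them.

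The factors of strand invasion and the enzymes that cut back and unwind DNA had the highest medians by role, 4.38 and 4.48 in MYCN minus adrenal. Exo1, an exonuclease that cuts back broken ends, read 4.42, 4.32 and 4.39 in the adrenal arrays, 6.95, 7.26 and 8.6 in the mutALK arrays, 9.61, 9.87, 9.82 and 9.62 in the MYCN arrays and 8.91, 8.79 and 8.43 in the double transgenic arrays. The 3 tumour models lay above adrenal without overlap, MYCN lay above all others, and mutALK 3 reached into the double transgenic range. Its difference from adrenal was 5.35 ± 0.31 in MYCN (adjusted p = 1.76e-07), 4.33 ± 0.33 in double transgenic and 3.23 ± 0.33 in mutALK tumours (adjusted p = 1.39e-06 and 1.78e-05). The adrenal readings of Exo1, like those of other members such as Rad54b and Rad51ap1, lie below the array medians of 5.8 to 5.9, and signal over background is not known there, so the true size of such differences is uncertain. Blm, the helicase mutated in Bloom syndrome, which unwinds recombination intermediates, read 5.87, 5.52 and 5.73 in the adrenal arrays, 7.19, 7.52 and 8.05 in the mutALK arrays, 9.25, 9.47, 9.26 and 9.28 in the MYCN arrays and 8.68, 8.78 and 8.53 in the double transgenic arrays. No groups overlapped. Its mutALK minus MYCN value was -1.73 ± 0.17 (adjusted p = 5.6e-05) and its double transgenic minus MYCN value -0.65 ± 0.17 (adjusted p = 0.0311). That last call was lost without MYCN 2, 3 or 4 or any 1 double transgenic array (adjusted p 0.063 to 0.115). Exo1 missed the threshold there at -1.02 ± 0.31 (adjusted p = 0.0506) and was called without mutALK 1, mutALK 3, adrenal 2 or the arrays with liver transcripts. Double transgenic minus mutALK was 1.11 ± 0.33 for Exo1 (adjusted p = 0.0447), a call kept only when mutALK 3 or adrenal 2 was the array left out (otherwise adjusted p 0.0561 to 0.157).

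Rad54l, a motor protein of strand invasion, read 5.56, 5.02 and 5.76 in the adrenal arrays, 7.22, 7.4 and 8.16 in the mutALK arrays, 9.7, 9.86, 9.81 and 9.65 in the MYCN arrays and 8.98, 9.49 and 8.76 in the double transgenic arrays. All 4 groups were apart. Its relative Rad54b read 3.19, 3.31 and 3.62 in the adrenal arrays, 5.05, 4.76 and 6.07 in the mutALK arrays, 7.81, 7.83, 7.84 and 7.54 in the MYCN arrays and 7.79, 8.39 and 7.12 in the double transgenic arrays, with the MYCN arrays inside the double transgenic range. Rad54b showed the widest gap between tumours, at -2.46 ± 0.32 in mutALK minus MYCN and 2.47 ± 0.34 in double transgenic minus mutALK (adjusted p = 0.000229 and 0.00232). Rad51ap1, which stabilises the joint between the strands, read 4.76, 4.84 and 5.29 in the adrenal arrays, 7.2, 7.91 and 9.11 in the mutALK arrays, 9.4, 9.47, 9.44 and 9.32 in the MYCN arrays and 9.26, 9.5 and 9.21 in the double transgenic arrays. Here mutALK 3 stood close to the MYCN arrays and the other mutALK arrays well below. Its double transgenic minus mutALK value was 1.25 ± 0.36 (adjusted p = 0.0399) and kept its call only when mutALK 3, adrenal 2 or adrenal 3 was the array left out (otherwise adjusted p 0.052 to 0.129). Against adrenal these 3 genes rose by 4.31 to 4.44 in MYCN, by 3.63 to 4.39 in double transgenic and by 1.92 to 3.11 in mutALK tumours. Without the arrays with liver transcripts Rad54b in mutALK minus adrenal was 1.36 and not called (adjusted p = 0.0714).

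**Figure D3:**
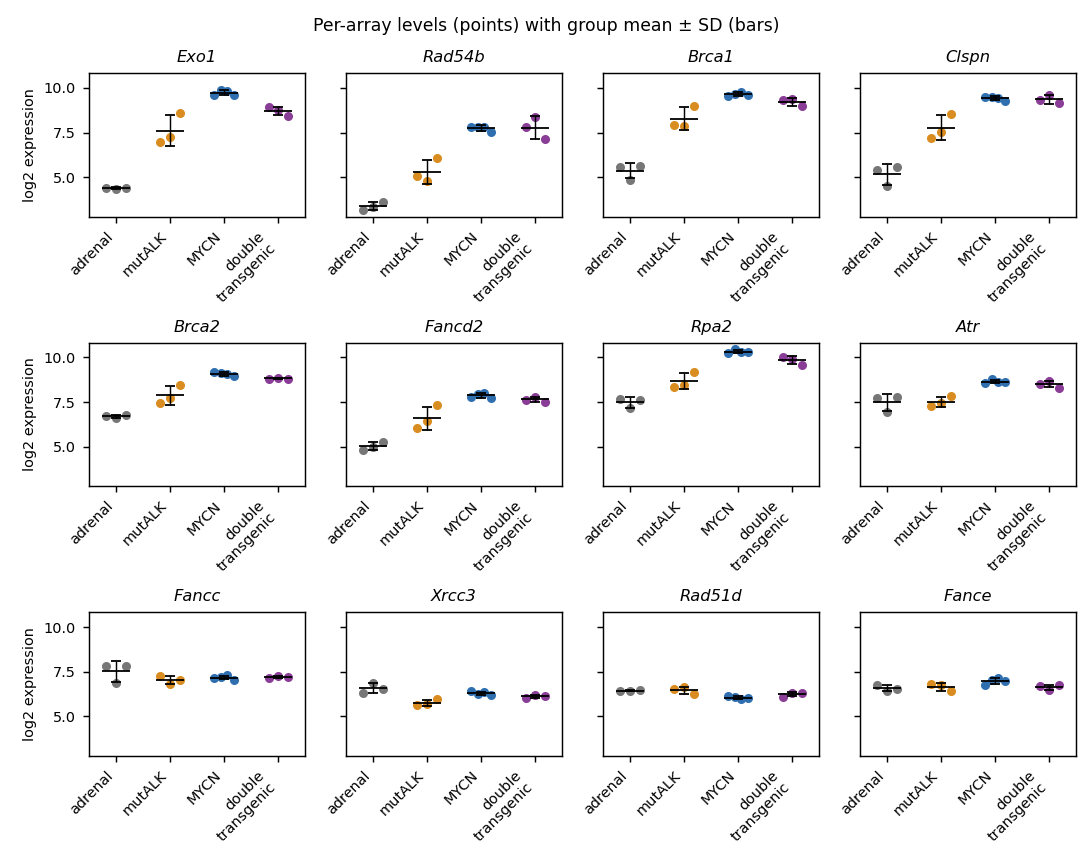
Log2 expression of 12 members in each array (points) with the group mean ± SD (bars), all panels on one axis. Exo1, Rad54b, Brca1 and Clspn climb by over 4 log2 units from adrenal to MYCN tumours, and the tumour group means of Fancc, Xrcc3, Rad51d and Fance stay within 0.8 of the adrenal mean.

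Genes of the BRCA1 and BRCA2 axis rose with them. Brca1, the ubiquitin ligase that steers breaks into recombination, read 5.59, 4.87 and 5.62 in the adrenal arrays, 7.93, 7.89 and 9.01 in the mutALK arrays, 9.57, 9.65, 9.79 and 9.59 in the MYCN arrays and 9.33, 9.37 and 8.97 in the double transgenic arrays. The MYCN arrays were the highest, and mutALK 3 overlapped the double transgenic arrays. Brca1 rose against adrenal by 4.29 ± 0.27 in MYCN, by 3.86 ± 0.29 in double transgenic and by 2.92 ± 0.29 in mutALK tumours (adjusted p = 2.7e-07, 1.25e-06 and 1.42e-05). Brca2, which prepares single strands for invasion, read 6.73, 6.6 and 6.76 in the adrenal arrays, 7.44, 7.73 and 8.46 in the mutALK arrays, 9.2, 9.12, 9.06 and 8.95 in the MYCN arrays and 8.82, 8.85 and 8.81 in the double transgenic arrays. Palb2, which joins BRCA1 to BRCA2, read 5.34, 5.39 and 5.08 in the adrenal arrays, 6.89, 6.54 and 7.06 in the mutALK arrays, 8.03, 8.19, 8.28 and 8.04 in the MYCN arrays and 7.79, 7.92 and 7.54 in the double transgenic arrays. Both genes kept the 4 groups fully apart. In mutALK minus MYCN Brca2 was at -1.21 ± 0.19 and Palb2 at -1.3 ± 0.14 (adjusted p = 0.000725 and 9.18e-05). Double transgenic minus mutALK gave 0.95 ± 0.2 for Brca2, 0.92 ± 0.15 for Palb2 and 0.94 ± 0.29 for Brca1, of which Brca1 (adjusted p = 0.0484) kept its call only when mutALK 3 or adrenal 2 was the array left out (otherwise adjusted p 0.0541 to 0.175). Brca2 lost it without mutALK 2 (adjusted p = 0.0529).

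Other BRCA1 partners had smaller differences from adrenal. The Bard1 readings in all groups and the Brip1 readings in adrenal lie within or below the array medians of 5.8 to 5.9. Signal over background is not known there, so the true size of these differences is uncertain. Bard1, the obligate partner of BRCA1 in its ligase, read 4.04, 4.36 and 4.13 in the adrenal arrays, 4.24, 4.19 and 4.65 in the mutALK arrays, 5.12, 5.83, 5.58 and 5.51 in the MYCN arrays and 5.03, 4.9 and 4.88 in the double transgenic arrays. mutALK and adrenal overlapped, and the MYCN and double transgenic arrays lay above both. Brip1, a BRCA1-bound helicase, read 4.49, 4.39 and 4.59 in the adrenal arrays, 4.93, 4.74 and 5.82 in the mutALK arrays, 5.89, 6.5, 6.74 and 6.35 in the MYCN arrays and 6.15, 5.75 and 5.25 in the double transgenic arrays. The mutALK arrays lay above the adrenal arrays, yet the difference of 0.67 ± 0.3 was not called (adjusted p = 0.1). Bard1 in mutALK minus adrenal was at 0.18 ± 0.18 (adjusted p = 0.47). In MYCN minus adrenal Bard1 rose by 1.33 ± 0.17 and Brip1 by 1.88 ± 0.28 (adjusted p = 3.95e-05 and 0.000165). Bard1 in double transgenic minus MYCN was at -0.57 ± 0.17 (adjusted p = 0.0456) and kept its call only when mutALK 3, MYCN 1 or adrenal 2 was the array left out (otherwise, and without the arrays with liver transcripts, adjusted p 0.0518 to 0.134).

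The paralogs Rad51b, Rad51c, Rad51d and Xrcc3, which assist strand invasion, behaved unevenly. Rad51b read 4.63, 4.89 and 4.04 in the adrenal arrays, 4.41, 4.82 and 5.27 in the mutALK arrays, 5.64, 5.88, 6.07 and 6.05 in the MYCN arrays and 6.32, 5.06 and 5 in the double transgenic arrays. Double transgenic 1 stood apart from the other double transgenic arrays, and without it the difference from adrenal went from 0.94 ± 0.35 (adjusted p = 0.0429) to 0.51. That call was also lost without mutALK 2, any 1 MYCN array, adrenal 1 or adrenal 3 (adjusted p over all these 0.0506 to 0.166). Rad51b rose in MYCN tumours by 1.39 ± 0.33 (adjusted p = 0.0037). Its mutALK minus MYCN value of -1.07 ± 0.33 (adjusted p = 0.0269) was not called without mutALK 1 or 2 or MYCN 2, 3 or 4 (adjusted p 0.0547 to 0.114). Rad51c rose in all models, by 1.22 ± 0.22 in MYCN tumours, 1.04 ± 0.23 with both transgenes and 0.89 ± 0.23 in mutALK tumours (highest adjusted p = 0.00832), and no comparison between tumours was called. Rad51d read 6.44, 6.4 and 6.49 in the adrenal arrays, 6.5, 6.63 and 6.26 in the mutALK arrays, 6.12, 6.06, 5.96 and 6.04 in the MYCN arrays and 6.1, 6.31 and 6.32 in the double transgenic arrays. The MYCN arrays lay below every adrenal and mutALK array, and Rad51d was the 1 member that fell in MYCN minus adrenal (-0.4 ± 0.1, adjusted p = 0.00686) and the 1 member higher in mutALK than in MYCN tumours (0.42 ± 0.1, adjusted p = 0.00907). Both calls were lost when each array was centred on its median (-0.3 and 0.3, adjusted p = 0.123 and 0.169). These values rest on the brightest of 4 Rad51d probe sets. Those ranked 2 and 3 in brightness read 6.419 to 6.688 and 6.462 to 6.765 in adrenal arrays. Both lay below adrenal without overlap in MYCN (5.689 to 6.056 and 5.765 to 6.064) and double transgenic arrays (5.65 to 6.153 and 5.331 to 5.62). The dimmest overlapped between these groups. Xrcc3 read 6.33, 6.87 and 6.5 in the adrenal arrays, 5.65, 5.68 and 5.96 in the mutALK arrays, 6.39, 6.26, 6.34 and 6.19 in the MYCN arrays and 6.04, 6.18 and 6.13 in the double transgenic arrays. The mutALK arrays lay below all others and the double transgenic arrays below adrenal, while MYCN and adrenal overlapped. Xrcc3 was lower in mutALK minus MYCN (-0.53 ± 0.13, adjusted p = 0.00938). On the brightest probe sets it was the 1 member that fell in mutALK minus adrenal (-0.8 ± 0.14, adjusted p = 0.000741) and in double transgenic minus adrenal (-0.45 ± 0.14, adjusted p = 0.0201). The latter call was lost without adrenal 2, which had the highest Xrcc3 level (-0.3, adjusted p = 0.0668), without double transgenic 1 (-0.41, adjusted p = 0.0634) and without the arrays with liver transcripts (-0.26, adjusted p = 0.165).

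In the Fanconi pathway the marked pair rose more than most of the complex that marks it. Fancd2, the protein that receives the ubiquitin, read 4.83, 4.99 and 5.27 in the adrenal arrays, 6.07, 6.43 and 7.32 in the mutALK arrays, 7.81, 7.98, 7.99 and 7.74 in the MYCN arrays and 7.64, 7.8 and 7.51 in the double transgenic arrays. Fanci, its partner, read 5.68, 5.74 and 5.9 in the adrenal arrays, 6.76, 6.79 and 7.29 in the mutALK arrays, 8.01, 7.96, 7.94 and 7.89 in the MYCN arrays and 7.97, 7.87 and 7.59 in the double transgenic arrays. For both, adrenal, mutALK and the other tumours were apart, and the double transgenic and MYCN arrays overlapped. Against adrenal Fancd2 rose by 2.85 ± 0.24 and Fanci by 2.17 ± 0.14 in MYCN tumours, and by 1.58 ± 0.26 and 1.17 ± 0.15 in mutALK tumours (highest adjusted p = 0.000454). Fancd2 in double transgenic minus mutALK was 1.05 ± 0.26 (adjusted p = 0.0222) and lost its call without replicate 1 or 2 of either group (adjusted p 0.0526 to 0.0839). Of the 8 core complex members 6 rose in MYCN, 4 in double transgenic and 2 in mutALK tumours, with medians of 0.71, 0.52 and 0.21. The 2 of 8 in mutALK tumours are a share (25%) near the 21.3% of all genes called higher there, and the shares over all genes were 25.3% in MYCN and 24.3% in double transgenic tumours.

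Fancb, a core scaffold encoded on the X chromosome, read 5.33, 5.04 and 4.85 in the adrenal arrays, 5.84, 5.38 and 5.71 in the mutALK arrays, 7.74, 7.44, 7.49 and 7.44 in the MYCN arrays and 7.06, 7.33 and 6.63 in the double transgenic arrays. It kept all groups apart and had the largest core complex difference, 2.46 ± 0.18 in MYCN minus adrenal (adjusted p = 7.6e-07). Its smaller rise in mutALK tumours, 0.57 ± 0.19 (adjusted p = 0.032), was lost without mutALK 1 or 3, without adrenal 2 or 3 and without the arrays with liver transcripts (adjusted p 0.0679 to 0.579). With sex as a covariate that Fancb call was also lost (0.56, adjusted p = 0.0567). The same held with median centring, the mean of all probe sets, array weights or the compared groups alone (adjusted p 0.0537 to 0.0987). Fanca, another core scaffold, read 6.73, 5.84 and 6.28 in the adrenal arrays, 6.27, 6.41 and 7.14 in the mutALK arrays, 7.67, 7.92, 7.76 and 7.55 in the MYCN arrays and 7.43, 7.64 and 7.42 in the double transgenic arrays. The mutALK and adrenal arrays overlapped, and Fanca rose by 1.44 ± 0.23 in MYCN and 1.21 ± 0.24 in double transgenic tumours (adjusted p = 0.000239 and 0.00148). Its double transgenic minus mutALK value of 0.89 ± 0.24 (adjusted p = 0.0351) was not called once mutALK 1 or 2, MYCN 3 or any 1 double transgenic array was dropped (adjusted p 0.0517 to 0.123). Fancm, the translocase that recognises the crosslinked fork, rose by 1.91 ± 0.14, 1.57 ± 0.15 and 0.93 ± 0.15 in MYCN, double transgenic and mutALK tumours (highest adjusted p = 0.00047), and its call in double transgenic minus mutALK (0.64 ± 0.15, adjusted p = 0.0189) was lost without mutALK 1 or 2 or double transgenic 2 (adjusted p 0.0586 to 0.0764).

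The other core members differed less. Fancf and Fancl, the latter the ligase subunit, were called in MYCN alone of the comparisons with adrenal, at 0.94 ± 0.2 and 0.47 ± 0.14 (adjusted p = 0.00171 and 0.012), and Fancl lost its call without adrenal 2 and without the arrays with liver transcripts (adjusted p 0.0517 to 0.065). Fancg was called in double transgenic minus adrenal and nowhere else, at 0.5 ± 0.16 (adjusted p = 0.0205), and not without adrenal 1 or 2, double transgenic 2 or the arrays with liver transcripts (adjusted p 0.0517 to 0.0842). In mutALK minus MYCN Fancf was at -0.64 ± 0.2 and Fancl at -0.5 ± 0.14 (adjusted p = 0.0295 and 0.015). Fancf lost that call without any 1 array of these groups but MYCN 4 (adjusted p 0.0507 to 0.107, with the value without the arrays with liver transcripts), and Fancl lost it without mutALK 1 or 2 or those arrays (adjusted p 0.0507 to 0.0723). These Fancf values rest on the brightest of 3 probe sets. The one ranked 2 in brightness read 4.365 to 5.184 in adrenal and 6.171 to 7.065 in double transgenic arrays, above adrenal without overlap. It read 5.157 to 5.459 in mutALK and 6.484 to 6.813 in MYCN arrays, also without overlap. The dimmest Fancf probe set overlapped between all groups. Fance, which binds FANCD2, read 6.75, 6.43 and 6.55 in the adrenal arrays, 6.83, 6.73 and 6.39 in the mutALK arrays, 6.78, 7.06, 7.14 and 6.95 in the MYCN arrays and 6.67, 6.46 and 6.75 in the double transgenic arrays. The MYCN arrays lay just above every adrenal and double transgenic array, and the mutALK arrays overlapped all other groups. Its call in MYCN minus adrenal (0.41 ± 0.14, adjusted p = 0.0269) was lost without MYCN 2 or 3, adrenal 2 or 3 or the arrays with liver transcripts (adjusted p 0.0641 to 0.167). Fancc read 7.83, 6.86 and 7.84 in the adrenal arrays, 7.26, 6.8 and 7.04 in the mutALK arrays, 7.14, 7.2, 7.3 and 7.04 in the MYCN arrays and 7.12, 7.27 and 7.22 in the double transgenic arrays. Adrenal 2 stood well below the other adrenal arrays. Fancc was the 1 member called in no comparison, with -0.48 ± 0.23, -0.34 ± 0.21 and -0.31 ± 0.23 in mutALK, MYCN and double transgenic minus adrenal (adjusted p = 0.12, 0.219 and 0.299). Without adrenal 2 it was called lower in all 3 models, at -0.8, -0.66 and -0.63 (adjusted p = 0.000699, 0.00132 and 0.00262). These Fancc values rest on the brightest of 3 probe sets. The dimmest read 5.458 to 6.035 in adrenal, 6.609 to 6.818 in MYCN and 6.424 to 6.486 in double transgenic arrays, above adrenal without overlap. The one between them in brightness read 6.639 to 7.018 in adrenal and 6.117 to 6.626 in MYCN arrays. The direction of Fancc against adrenal therefore differs by probe set.

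**Figure D4:**
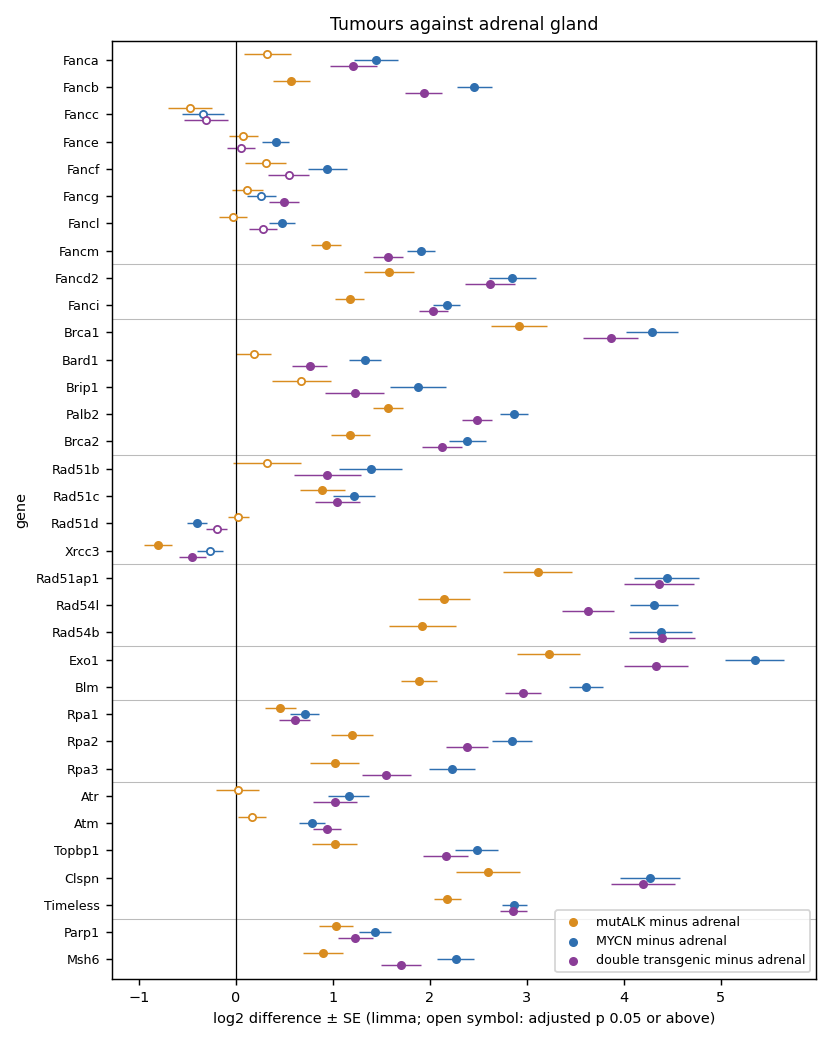
Log2 difference ± SE from the adrenal gland in mutALK (orange), MYCN (blue) and double transgenic tumours (purple) for each member by role, with filled symbols for adjusted p under 0.05 in limma. Exo1, Rad51ap1, Rad54b, Rad54l, Brca1 and Clspn exceed 4 in MYCN tumours, and 5 of the 8 Fanconi core members lie under 1 there.

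Replication protein A, the trimer that coats single strands, rose in all its subunits. Rpa2, the subunit phosphorylated by checkpoint kinases, read 7.65, 7.15 and 7.64 in the adrenal arrays, 8.35, 8.48 and 9.2 in the mutALK arrays, 10.26, 10.46, 10.29 and 10.3 in the MYCN arrays and 10.03, 9.94 and 9.6 in the double transgenic arrays. Its 4 groups did not overlap. Rpa3, the smallest subunit, read 8.65, 8.82 and 8.44 in the adrenal arrays, 9.18, 9.48 and 10.32 in the mutALK arrays, 10.67, 10.96, 11.03 and 10.8 in the MYCN arrays and 10.38, 10.29 and 9.89 in the double transgenic arrays. mutALK 3 lay within the double transgenic range. In MYCN minus adrenal Rpa2 rose by 2.85 ± 0.2, Rpa3 by 2.23 ± 0.24 and the large subunit Rpa1, which holds the main DNA binding domains, by 0.71 ± 0.15 (highest adjusted p = 0.00154). Rpa1 in mutALK minus adrenal was at 0.46 ± 0.16 (adjusted p = 0.0332) and was not called without mutALK 3, without any 1 adrenal array or without the arrays with liver transcripts (adjusted p 0.0624 to 0.203). Between tumours Rpa2 was at -1.65 ± 0.2 and Rpa3 at -1.21 ± 0.24 in mutALK minus MYCN (adjusted p = 0.000163 and 0.00251), while Rpa1 was at -0.25 ± 0.15 (adjusted p = 0.245) and was called without mutALK 3 (-0.43, adjusted p = 0.0222).

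Among the 5 checkpoint members Clspn, Topbp1 and Timeless had larger differences from adrenal in MYCN tumours than the kinases Atr and Atm, while the kinase Chek1, which is not a member, was at 3.85 ± 0.23. Clspn, the adaptor through which ATR activates CHEK1, read 5.43, 4.5 and 5.56 in the adrenal arrays, 7.21, 7.55 and 8.54 in the mutALK arrays, 9.49, 9.5, 9.44 and 9.29 in the MYCN arrays and 9.34, 9.61 and 9.13 in the double transgenic arrays. mutALK lay between adrenal and the other tumours, whose arrays overlapped. It rose by 4.27 ± 0.31 in MYCN and 2.6 ± 0.33 in mutALK tumours (adjusted p = 6.95e-07 and 8.31e-05). Topbp1, the activator of ATR, read 8.52, 7.88 and 8.62 in the adrenal arrays, 9.18, 9.07 and 9.82 in the mutALK arrays, 10.68, 10.91, 10.86 and 10.83 in the MYCN arrays and 10.72, 10.62 and 10.18 in the double transgenic arrays. The mutALK arrays were below all other tumours, and mutALK minus MYCN was -1.46 ± 0.22 (adjusted p = 0.000524). Its mutALK minus adrenal value of 1.02 ± 0.23 (adjusted p = 0.00415) was 0.5 and not called without the arrays with liver transcripts (adjusted p = 0.115). Timeless, of the fork protection complex, rose by 2.87 ± 0.13, 2.86 ± 0.14 and 2.18 ± 0.14 in MYCN, double transgenic and mutALK tumours (highest adjusted p = 1.01e-06). Atr, the kinase of stalled forks, read 7.74, 6.93 and 7.81 in the adrenal arrays, 7.26, 7.43 and 7.84 in the mutALK arrays, 8.58, 8.79, 8.65 and 8.6 in the MYCN arrays and 8.54, 8.69 and 8.31 in the double transgenic arrays. mutALK and adrenal overlapped at a difference of 0.02 ± 0.22 (adjusted p = 0.964), and Atr rose by 1.16 ± 0.21 in MYCN and 1.02 ± 0.22 in double transgenic tumours (adjusted p = 0.000582 and 0.00247). In double transgenic minus mutALK the calls of Atr (1 ± 0.22, adjusted p = 0.0149) and Clspn (1.59 ± 0.33, adjusted p = 0.011) were lost without double transgenic 2, and that of Atr also without mutALK 1 or 2 (adjusted p 0.0542 to 0.0643 for Atr and 0.052 for Clspn). Atm, the kinase of double-strand breaks, rose by 0.79 ± 0.13 in MYCN and 0.94 ± 0.14 in double transgenic tumours (adjusted p = 0.000389 and 0.000195) and was at 0.16 ± 0.14 in mutALK tumours (adjusted p = 0.416). These Atm values rest on the brightest probe set. The dimmer one was at -0.23 ± 0.19 (adjusted p = 0.362) in MYCN and 0.44 ± 0.2 (adjusted p = 0.0915) in double transgenic minus adrenal, neither called. With the mean of both the MYCN value was 0.28 (adjusted p = 0.144) and double transgenic minus mutALK 0.39 (adjusted p = 0.132), also not called.

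Of the damage sensors, Msh6, the mismatch recognition subunit, read 8.49, 7.71 and 8.29 in the adrenal arrays, 9.09, 8.73 and 9.36 in the mutALK arrays, 10.39, 10.44, 10.51 and 10.38 in the MYCN arrays and 10.07, 9.9 and 9.63 in the double transgenic arrays, with no overlap between groups. Its mutALK minus MYCN value was -1.37 ± 0.19 (adjusted p = 0.000359) and it rose against adrenal by 2.27 ± 0.19 in MYCN and 0.9 ± 0.21 in mutALK tumours (adjusted p = 2.13e-06 and 0.00428), the latter being 0.34 and not called without the arrays with liver transcripts (adjusted p = 0.21). Its double transgenic minus mutALK value of 0.81 ± 0.21 (adjusted p = 0.0261) was not called without replicate 1 or 2 of either group (adjusted p 0.063 to 0.103). Parp1, the polymerase that marks strand breaks with poly(ADP-ribose), rose by 1.44 ± 0.17, 1.23 ± 0.18 and 1.03 ± 0.18 in MYCN, double transgenic and mutALK tumours (highest adjusted p = 0.000646). On the brightest of 4 probe sets no comparison of Parp1 between tumours was called. There mutALK minus MYCN was at -0.4 ± 0.17 (adjusted p = 0.0916), which became a call without mutALK 3 (-0.57, adjusted p = 0.0208). The Parp1 probe set next in brightness read 10.046 to 10.391 in mutALK and 10.589 to 10.746 in MYCN arrays, without overlap. On the dimmer ones every mutALK array also lay below every MYCN array. Whether Parp1 sets these models apart therefore differs by probe set.

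Arrays of one model were not alike in these genes. Of the 34 members 28 were highest in mutALK 3 among the mutALK arrays, against 29.7% of all genes, and the member mean was 7.8 there against 7.19 and 7.25 in mutALK 1 and 2. Among double transgenic arrays 26 were lowest in replicate 3, against 28.3% of all genes, with means of 8.26, 8.29 and 8. In adrenal 2 20 members were the lowest of the gland, against 41.3% of all genes. The 4 MYCN arrays had means of 8.41, 8.55, 8.54 and 8.4.

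Cell division transcripts moved with the repair genes. The 15 cell division genes, such as Mki67 and Top2a, averaged 6.06 to 7.01 over the adrenal arrays, 9.2, 9.23 and 10.07 over the mutALK arrays, 10.33 to 10.81 over the double transgenic arrays and 10.88 to 11.17 over the MYCN arrays, so mutALK 3 was the highest of its group and double transgenic 3 the lowest of its group here too. All 15 were called higher in each tumour model, at medians of 3.03, 4.43 and 4.02 for mutALK, MYCN and double transgenic minus adrenal. Of all genes 21.3%, 25.3% and 24.3% were called higher in these comparisons. In mutALK minus MYCN 14 of the 15 were lower. The 20 DNA replication genes averaged 9.16, 9.16 and 10.16 in mutALK and 10.75 to 10.92 in MYCN arrays, and 19 were lower in mutALK minus MYCN. For both lists the share of all genes called lower there was 17.2%. The part of cell division in the repair gene differences was not tested. Markers of the tumours' own lineage ran the other way. The sympathoadrenal means were highest in mutALK, lower in double transgenic and lowest in MYCN among the tumour arrays, without overlap, the reverse of the order of the member means. In mutALK minus MYCN 5 of these 13 markers were called higher and 1 lower, against 13.6% and 17.2% of all genes. The 10 neuron markers averaged 12.44 to 12.75 in mutALK, 11.85 to 12.33 in double transgenic and 10.48 to 10.83 in MYCN arrays, and 6.31, 10.65 and 5.44 in the adrenal arrays. In 8 of the 10 every mutALK array lay above every MYCN array, against 19% of all genes, at a median difference of 1.01 over the list, and 1, Prph, was called there (8.69 ± 1.31, adjusted p = 0.000551). The part of these lineage markers was not tested. Stroma and fat also differed. The 6 fat cell markers averaged 10 to 11.88 in adrenal and 5.35 to 9.05 in tumour arrays, and all 6 were called lower in each model than in adrenal. The 9 endothelial markers averaged 8.92 to 8.94 in adrenal, 6.61 to 7.31 in mutALK, 6.35 to 7.66 in MYCN and 5.4 to 5.97 in double transgenic arrays. All 9 were called lower in each model than in adrenal, against the same shares of all genes. The 8 fibroblast markers averaged 6.98 to 8.84 in double transgenic, 8.99 to 9.63 in MYCN and 9.22 to 10.09 in mutALK arrays. Of these, 5 were called lower in double transgenic minus mutALK, against 6.03% of all genes. The 10 macrophage markers averaged 9.05 to 10.02 in mutALK, 8.42 to 9.26 in MYCN and 7.94 to 8.76 in double transgenic arrays. Of these, 3 were called higher in mutALK than in MYCN tumours, against 13.6% of all genes. The part of the fat cell, endothelial, fibroblast and macrophage markers was not tested.

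**Figure D5:**
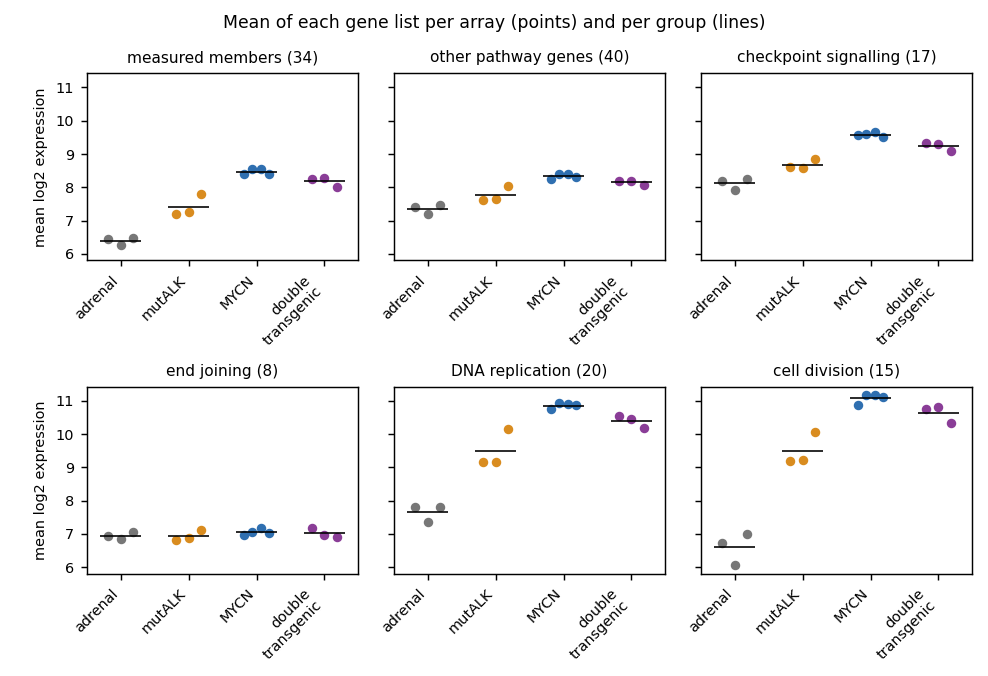
Mean log2 expression of 6 gene lists in each array (points) and group (lines), on one axis. The measured members, the other pathway genes, checkpoint signalling, DNA replication and cell division lists climb from adrenal through mutALK to MYCN, while the 8 end joining genes stay between 6.81 and 7.18.

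Further genes of the same pathways, not among the members, moved less as a list. Of 40 such genes 22 rose (55%) and 2 fell in MYCN minus adrenal, at a median of 0.43. In double transgenic minus adrenal 19 rose (47.5%) and 2 fell, and in mutALK minus adrenal 12 rose (30%) and 3 fell. Of all genes 25.3%, 24.3% and 21.3% were called higher in these comparisons, and 24.8%, 24.2% and 21% lower. The mutALK share of rises stood closest to that over all genes. In mutALK minus MYCN 20 were lower (50%), against 17.2% of all genes. Dna2, a nuclease of end resection, rose by 4.25 ± 0.29 in MYCN tumours (adjusted p = 5.25e-07), Ube2t, the enzyme that brings ubiquitin to FANCD2, by 4.12 ± 0.28 (4.63e-07), and Mms22l, which acts at stalled forks, by 3.44 ± 0.28 (1.49e-06). Zswim7, a cofactor of these paralogs in recombination, fell in all 3 models, with -1.63 ± 0.1 for MYCN, -1.62 ± 0.11 for double transgenic and -1.4 ± 0.11 for mutALK tumours (highest adjusted p = 3.75e-06). The other falls against adrenal were the meiotic recombinase Dmc1 in MYCN (-0.47 ± 0.16, adjusted p = 0.0287), the helicase Wrn in mutALK (-0.55 ± 0.15, 0.0103) and the nuclease subunit Ercc4 in mutALK and double transgenic tumours (-0.42 ± 0.13 and -0.34 ± 0.13, 0.0202 and 0.0492).

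Checkpoint signalling genes outside the member set were called higher in MYCN minus adrenal in 15 of 17 cases and lower in 1. The shares over all genes were 25.3% and 24.8%. In mutALK minus MYCN 13 were lower and 1 higher, against 17.2% and 13.6% of all genes. Chek1, the effector kinase of ATR, led MYCN minus adrenal with 3.85 ± 0.23 (adjusted p = 2.06e-07). Tipin, the partner of Timeless, followed at 2.93 ± 0.27 and the phosphatase Cdc25a at 2.68 ± 0.15. The exception was Cdkn1a, the p53-induced cyclin kinase inhibitor, which fell in MYCN minus adrenal (-1.61 ± 0.37, adjusted p = 0.003) and was called in mutALK minus MYCN at 2.34 ± 0.37 (adjusted p = 0.000681) and in double transgenic minus mutALK (-1.4 ± 0.39, adjusted p = 0.037). Rnf8, a ligase at breaks, fell in mutALK minus adrenal (-0.5 ± 0.13, adjusted p = 0.00984).

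The other repair routes gave mixed counts, to be read against 25.3% of all genes called higher and 24.8% lower in MYCN minus adrenal. Of 8 end joining genes, which rejoin breaks without a template, 1 rose and 2 fell in MYCN minus adrenal at a median of -0.05, and neither share (12.5% and 25%) stood clear of that over all genes. Xrcc5, which encodes the Ku80 subunit, rose by 1.92 ± 0.2 (adjusted p = 1.03e-05), and Prkdc, the catalytic subunit of DNA-PK, and the polymerase Poll were at -0.61 ± 0.14 and -0.54 ± 0.14 (0.00379 and 0.00515). Xrcc6, which encodes Ku70, was lower in mutALK minus MYCN (-1.56 ± 0.18, adjusted p = 0.000131). Of 14 base excision genes 8 rose in MYCN minus adrenal at a median of 1.02, with Ung, the uracil glycosylase, at 4.21 ± 0.3 (adjusted p = 6.41e-07), Neil3 at 2.94 ± 0.38 and Mbd4 at 1.74 ± 0.17. The glycosylases Neil1 and Nthl1 fell in mutALK minus adrenal (-0.68 ± 0.15 and -0.72 ± 0.18, adjusted p = 0.00383 and 0.00698) and Nthl1 in double transgenic minus adrenal (-0.63 ± 0.18, 0.0121). Of 4 mismatch repair genes Pms2 and Pms1 rose in MYCN tumours (1.79 ± 0.11 and 1.25 ± 0.19, adjusted p = 2.7e-07 and 0.000153), and Mlh3 fell in double transgenic minus adrenal (-0.35 ± 0.11, 0.023). Of 13 nucleotide excision genes 6 rose and 1 fell in MYCN minus adrenal at a median of 0.33. Ercc8 rose by 1.63 ± 0.14 and the TFIIH subunit Gtf2h4 by 1.15 ± 0.16, and the damage sensor Ddb2 fell (-1.4 ± 0.27, adjusted p = 0.000822) and was higher in mutALK and in double transgenic than in MYCN tumours (1.01 ± 0.27 and 1.24 ± 0.27, 0.013 and 0.0125).

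For 26 members other probe sets, 43 in all, read the same gene, and each was tested on its own. Against adrenal 33 of the 43 gave the same call as the brightest probe set in MYCN, 32 in mutALK and 29 in double transgenic tumours, and the others differed by a call on 1 side only. Between tumours 35 gave the same call in double transgenic minus MYCN, where few calls were made, and 28 in mutALK minus MYCN. In double transgenic minus mutALK 19 gave the same call, 23 had a call on 1 side only and 1 had opposite calls. With the mean of all probe sets the count of 20 members higher there was 14. Opposite calls occurred for 2 genes. In mutALK minus MYCN the dimmer Atm probe set was higher (0.68 ± 0.19, adjusted p = 0.018) where the brightest was lower (-0.63, adjusted p = 0.00486). In double transgenic minus mutALK a dimmer Fancm probe set was lower (-0.94 ± 0.2, adjusted p = 0.013) where the brightest was higher (0.64, adjusted p = 0.0192). The direction of these 2 genes in these comparisons therefore differs by probe set.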

How the data were processed

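RNA of 10 mouse tumours and 3 adrenal glands was measured on 13 Affymetrix arrays. The deposited values are log2 expression made by the authors with RMA and Partek, per the submitters' processing notes, with versions not given in the sources used here. The values ran from 2.04 to 14.46, array medians from 5.8 to 5.9, and correlations within a group, across genes, from 0.938 to 0.991.  The precision rests on 3 or 4 arrays per group.

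Of 45101 probe sets 34958 had 1 symbol and were used, 932 had several and 9211 none. The brightest probe set by mean over all arrays stood for a gene (18194 genes), without a filter on dim genes. By that mean 6 of the 34 measured members (Bard1, Brip1, Rad51b, Rad54b, Xrcc3 and Fancg) fell among the dimmest 40% of genes. limma 3.58.1 in R 4.3.3 fitted 1 mean per group to all 13 arrays (9 residual and 2.28 prior degrees of freedom) and tested 6 contrasts two-sided, with Benjamini-Hochberg adjustment over all genes and calls at 0.05. Tested on simulated data of 18194 genes, it found over the contrasts 64 to 73% of genes shifted by 1 log2 unit, 85 to 93% of those shifted by 2, and 4 to 17 genes not shifted.

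An item withheld for evaluation is not reported here. The members and lists were chosen with earlier results of these data known. Values in every array are given for members called with at least 1 log2 unit between tumours, for the 3 with the smallest range of group means and for members alone in their direction. In the other lists up to 3 called genes by size and any called against most of their list are named. Alternatives were quantile normalization again, median centring, other uses of probe sets, a filter on dim genes, a variance trend, array weights, the compared groups alone, a block for shared title numbers, sex (read from Xist and Y-linked genes, with all adrenal arrays female), and leaving out single arrays or those with liver transcripts. Plots used Python 3.11.15 and matplotlib 3.10.9.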

Additional observations from a re-analysis of the deposited data

Results flagged for a closer look

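In 2 of the 34 members a single MYCN array lay far from the other 3 relative to the range of the group, and chance flags about 1 group in 20. Rad54b read 7.54 in MYCN 4, against 7.81 to 7.84 in the other MYCN arrays. Blm read 9.47 in MYCN 2, against 9.25 to 9.28 in the others. Both gaps are small beside the differences between groups reported for these genes.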

How the results depend on the processing

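Counts of members called were recomputed under 24 alternatives. The numbers that rose against adrenal and the 27 lower in mutALK than in MYCN tumours stayed within 1.5 times their value under all of them. Leaving out 1 array gave 19 to 21 higher in mutALK minus adrenal, 28 to 30 in MYCN minus adrenal, 27 to 29 in double transgenic minus adrenal, 24 to 28 lower in mutALK minus MYCN, and 11 to 22 higher in double transgenic minus mutALK, which was also 11 with the compared groups alone. The numbers lower against adrenal, 1 in each model, ranged from 1 to 2 in mutALK, 1 to 2 in MYCN and 0 to 1 in double transgenic tumours without single arrays. In mutALK this number was 0 without the dimmest 40% of genes, which dropped Xrcc3 from the test, and 2 with array weights or without the arrays with liver transcripts. In MYCN it was 0 with median centring and 2 with array weights, sex as a covariate or without the arrays with liver transcripts, and in double transgenic tumours 0 with median centring, without the dimmest genes or with the compared groups alone. The 1 member higher in mutALK than in MYCN tumours became 0 with median centring, which moved the median of all genes there to -0.12 and that of the members to -1.27. The 2 lower in double transgenic than in MYCN tumours ranged from 0 to 4 without single arrays and were 0 with median centring or the title number block, 4 with the mean of all probe sets, 5 without the arrays with liver transcripts, 6 with the compared groups alone and 7 with array weights. With the mean of all probe sets 1 member, Rad51d, was called lower in double transgenic minus mutALK, and the values of Atm in mutALK minus MYCN (0.03, adjusted p = 0.93) and of Fancm in double transgenic minus mutALK (-0.07, adjusted p = 0.861) changed sign, as their probe sets disagree. For the rest the cause was not tested. No paired analysis was possible because no title number is shared between groups. Signal over background is not known for these values, so what it limits for the 6 members among the dimmest 40% of genes could not be measured.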
